A study of Mus musculus with 16 samples.

Results

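Gene expression was compared between mast cells with and without the phosphatase PEP before any contact with antigen. PEP, the PEST-domain-enriched tyrosine phosphatase, is encoded by Ptpn22. The comparison took the samples whose treatment label named immunoglobulin E (IgE) alone, which were 4 of the 16 RNA-seq samples of the series. These were 2 samples of PEP+/+ and 2 samples of PEP-/- bone marrow derived mast cells (BMMCs), which are mast cells grown from marrow in stem cell factor and interleukin 3. The labels gave C57BL/6 as the strain of both genotypes, male mice of 8 to 10 weeks and 4 weeks in culture. For all 4 samples the labels gave 3 h with IgE at a concentration of 0.05 µg/ml, and none had received dinitrophenol (DNP) or dexamethasone (DEX). The study's methods gave a higher IgE concentration than the labels, so the dose is uncertain. The other 12 samples had received DNP at 200 ng/ml for 1 h (IgE DNP), DEX for 8 h (IgE DEX) or both (IgE DNP DEX) in addition to IgE, with 2 samples per genotype in each treatment. They entered the same fit, where they shared in the estimate of spread, in the effect of the replicate set and in the filter on low counts, and they served the comparisons between treatments given last. How the PEP-/- allele was made and how many mice or cultures stood behind the 2 samples of a genotype were not given in the sources used here. Genotype and culture therefore cannot be told apart. The p-values measure the spread left among all 16 samples after the condition means and the replicate set were taken out. They do not measure the spread between mice or cultures.

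Mast cells carry the high-affinity IgE receptor FcεRI, which is loaded with IgE during sensitization and is clustered when antigen binds that IgE. Clustering starts a cascade of tyrosine phosphorylation through Lyn, Syk and the adaptor Lat, and ends in degranulation and cytokine transcription. PEP is a cytoplasmic phosphatase of haematopoietic cells that binds the kinase Csk and dephosphorylates Src family and Syk family kinases. The cells of this comparison were loaded with IgE but were not clustered by antigen, and they were grown in factors that drive division.

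The targeted gene was examined first. Ptpn22 (ENSMUSG00000027843, GRCm38 chr3:103859795-103912247, + strand) had 216 and 130 counts in the PEP+/+ samples and 0 and 1 counts in the PEP-/- samples. The corresponding levels were 15.9 and 11.3 CPM (counts scaled to the size of the library) against 0 and 0.0514 CPM. Scaled to library size, the PEP-/- counts came to 0.239% of the PEP+/+ counts, with an exact 95% interval of 0.00603 to 1.34% for counting error only. The fitted log2 fold change was -8.38 ± 0.64 (SE), and its size depends on the prior count because the PEP-/- counts were so few. The adjusted p was 3.44e-05. The groups did not overlap, so the libraries matched their genotype labels in this gene.

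The replicates came in 2 sets, which the titles mark with numbers (set 1) or letters (set 2), each with 1 sample per genotype and treatment. The sets did not match the label of male mice alike. Xist, the RNA of the inactive X chromosome in female cells, had 0 or 1 counts in each of the 8 libraries of set 1 and 8142 to 30035 counts in each of the 8 libraries of set 2. The Y-linked gene Ddx3y had 749 to 1732 counts in set 1 and 0 counts in set 2, and the Y-linked gene Eif2s3y had 633 to 1599 counts in set 1 and at most 1 count in set 2. Within a set both genotypes had the same pattern, so each PEP-/- sample was compared with a PEP+/+ sample of the same Xist and Y-linked pattern. The 8 libraries of set 2 therefore went against the label, and the main test compared the genotypes within sets. Whether the groups overlapped was judged across the sets. With set 2 left out there would be 1 sample per genotype and no test, so the difference within each set is given beside the main results.

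The 4 samples held 9637647 to 17145129 counts on genes, and all 16 held 8612531 to 22143526. The reads on no gene made up 5.15 and 6.22% in set 1 and 9.02 and 9.17% in set 2. The first principal component of the 4 samples, with 83.4% of the variance of the 500 most variable genes, separated the sets. The second, with 13.0%, separated the genotypes. The 10 mast cell markers summed to 63100 and 64200 CPM in PEP+/+ and 68300 and 72200 CPM in PEP-/- cells. The 12 macrophage and monocyte markers summed to 55.2 and 39.4 CPM in PEP+/+ against 101 and 57.1 CPM in PEP-/- samples, and Ccr2 and Cd68 held most of it. Mrc1 and C1qa were at 0 in all 4, and 7 of the 12 stayed under 1 CPM. The 11 neutrophil markers summed to 0.607 to 2.73 CPM, and the 10 lymphocyte markers to 0.819 to 1.73 CPM, with Elane and Cd3e among those at 0. The 8 eosinophil markers summed to 3.31 and 0.954 CPM in PEP+/+ and 6.28 and 3.39 CPM in PEP-/- samples, with Epx among the 5 at 0. The 9 dendritic cell markers summed to 15.7 and 32.4 CPM in PEP+/+ and 27.9 and 44.0 CPM in PEP-/- samples, with Cd209a at 0 and 7 of the 9 under 1 CPM. The basophil list summed to 3900 to 4490 CPM. The erythroid and megakaryocyte list summed to 1970 to 3260 CPM and the stromal list to 233 to 467 CPM. These sums came almost entirely from Cyp11a1 and Cd200r3, Itga2b and Pecam1 in turn, which are not restricted to those cells. Mcpt8 of the basophil list was at 45.8 and 14.3 CPM in PEP+/+ and 29.8 and 15.6 CPM in PEP-/- samples. The part of basophils in this level was not tested.

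After IgE alone, 15 of 36 tested genes of DNA replication and mitosis were lower in PEP-/- than in PEP+/+ BMMCs, and none of these 15 was a mitosis gene. The transcription factors Myc and Mycn were lower as well, and 3 of 37 tested interferon-stimulated genes were higher. The genes of the mast cell itself (the IgE receptor, granule proteases and mediator synthesis) did not pass the test. In lists of this size that is near the share called over all genes. Of 13305 genes tested, 225 (1.69%) differed at an adjusted p under 0.05. Of these, 185 (1.39% of genes tested) were lower in PEP-/- cells and 40 (0.301%) were higher. The median log2 fold change was -0.89 among the lower genes and 0.81 among the higher genes, against 0.03 over all genes tested. The log2 fold change reached 1 in size in 62 of the lower and 13 of the higher genes, so most changes were smaller than a doubling. Both PEP-/- samples lay below both PEP+/+ samples in 164 of the 185 lower genes and above them in 33 of the 40 higher genes. Over all genes tested this held for 12.9% and 13.6%.

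The difference had the same sign in both replicate sets for all 225 genes, as a paired test favours. The median difference of the 185 lower genes was -0.81 in set 1 and -0.97 in set 2, and that of the 40 higher genes was 0.79 in set 1 and 0.80 in set 2. Since a paired test also favours genes whose differences are alike in size, these medians are a description. The calls rest on the pairing of same-set samples. In a fit without the replicate sets only Ptpn22 was called (1 gene). The sets differed more than the genotypes did. The median absolute log2 difference was 0.413 and 0.366 between the replicates of a genotype and 0.228 between the genotypes within a set. The count was also decided by single libraries. It fell when any of the 4 samples was left out, which leaves 1 sample in a genotype. Leaving out PEP+/+ replicate 1 or 2 gave medians of -1.04 or -0.76 for the lower genes and 0.84 or 0.79 for the higher. Leaving out PEP-/- replicate 1 or 2 gave -0.85 or -0.94 and 0.76 or 0.85. The direction of all 225 genes stayed the same in each of these fits. The genes were chosen on these libraries with 1 sign in both sets, so this was nearly fixed in advance.

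**Figure D1:**
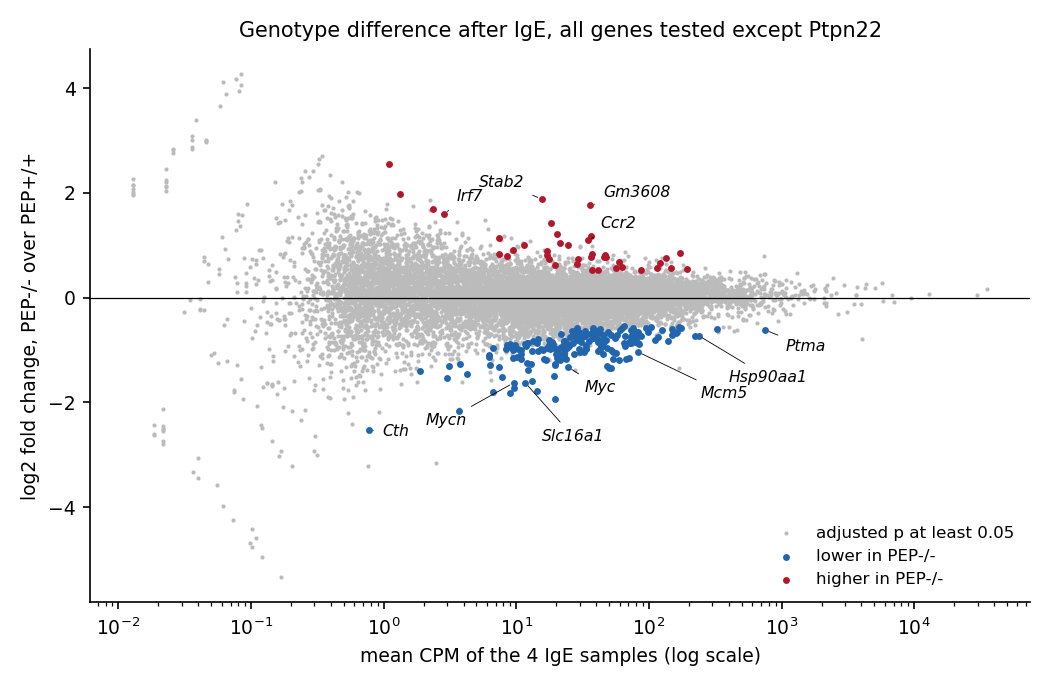
Log2 fold change of PEP-/- over PEP+/+ BMMCs after IgE alone (vertical axis) against the mean CPM of the 4 samples on a log scale (horizontal axis), for all genes tested except Ptpn22. The coloured points are the genes with an adjusted p under 0.05, which lie mostly below 0 (blue, lower in PEP-/-) and less often above it (red, 40 genes).

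**Figure D2:**
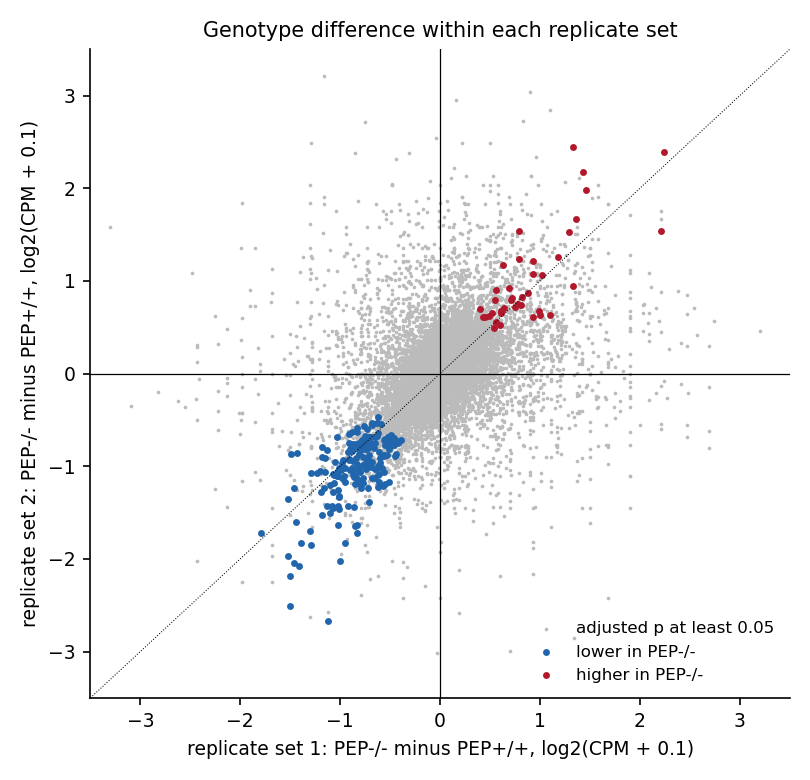
Difference PEP-/- minus PEP+/+ in log2(CPM + 0.1) within replicate set 1 (horizontal axis) and within set 2 (vertical axis), for all genes tested except Ptpn22 within the limits of the axes. The blue genes (lower in PEP-/-) lie at the lower left and the red genes (higher) at the upper right, near the dotted line of equal differences.

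The transcription factors Myc and Mycn, which drive ribosome production, nucleotide synthesis and cell cycle entry, were both lower in PEP-/- cells. Myc (chr15:61985391-61990374) was at 20.8 and 50.1 CPM in the PEP+/+ samples of set 1 and set 2 and at 11.5 and 15.9 CPM in the PEP-/- samples. Every PEP-/- sample was below every PEP+/+ sample, and the log2 fold change was -1.33 ± 0.27 with an adjusted p of 0.0277. Mycn (chr12:12936093-12941914) was at 9.40 and 19.3 CPM in PEP+/+ and at 4.64 and 4.68 CPM in PEP-/- samples, and its log2 fold change was -1.63 ± 0.35 with an adjusted p of 0.0348. The fall was larger in set 2 (-1.65 for Myc and -2.02 for Mycn) than in set 1 (-0.85 and -1.0). Mxd4, a factor that competes with MYC for its partner Max, was higher, at 186 and 128 CPM in PEP+/+ and at 246 and 207 CPM in PEP-/- samples (log2 fold change 0.54 ± 0.13, adjusted p 0.0484). In a list of 11 tested genes of the MYC network, put together after the values were seen, these 3 were the ones that passed, and the list's median was 0.08. Myc was also the only member called of 28 immediate early genes (3.57%, against 1.69% of all genes), whose median was -0.16.

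**Figure D3:**
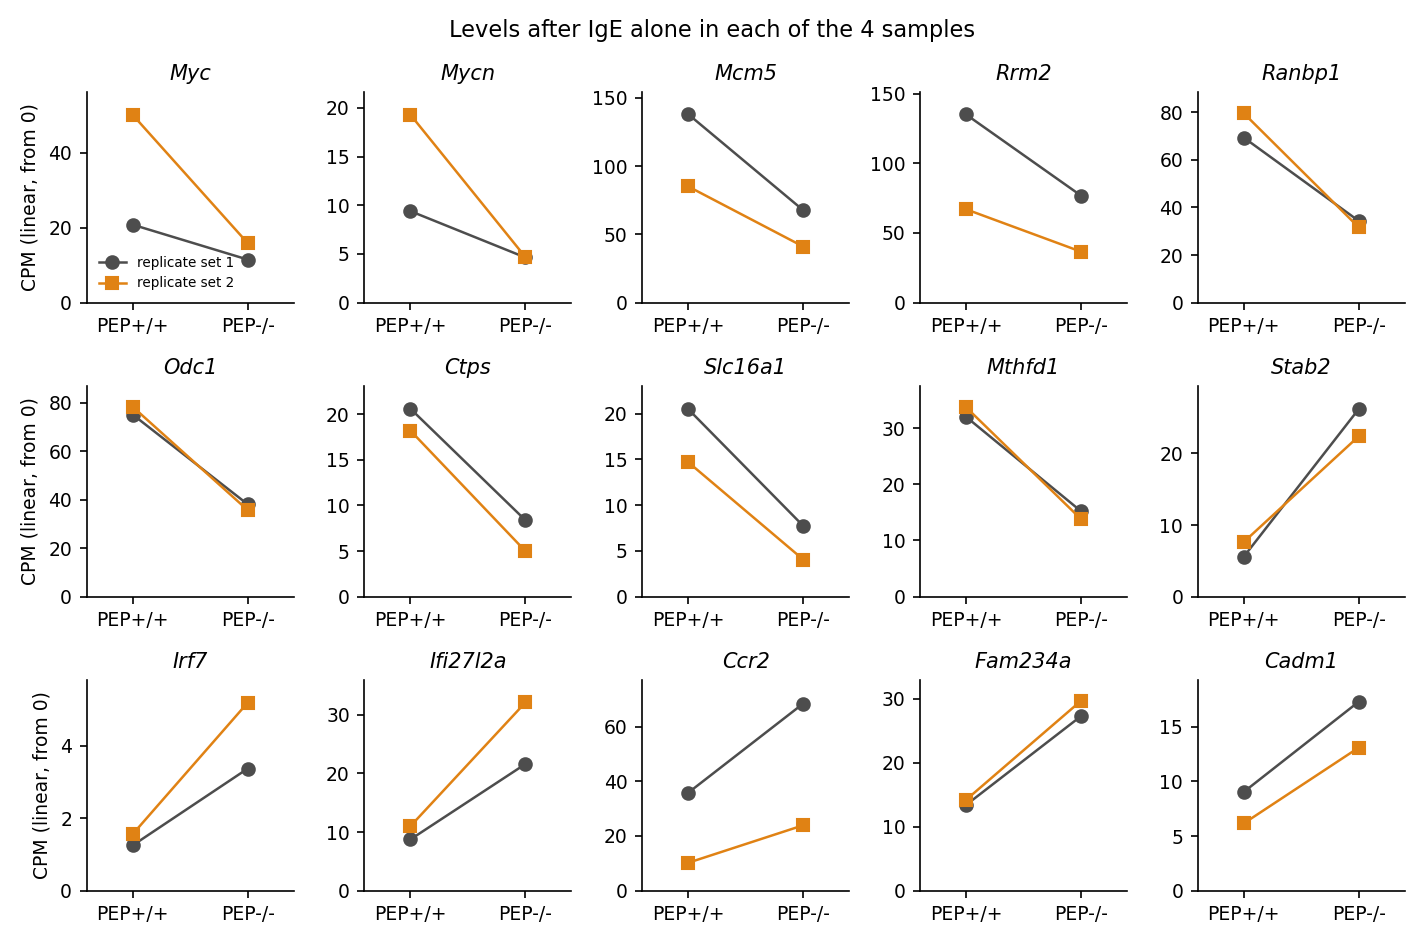
CPM (vertical axes, linear and from 0) of 15 genes in the 4 samples after IgE alone, with a line joining the PEP+/+ and the PEP-/- sample of replicate set 1 (grey circles) and of set 2 (orange squares). From Myc to Mthfd1 both lines fall, and from Stab2 to Cadm1 both lines rise, while Ccr2 and Rrm2 differ more between the sets than between the genotypes.

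Small nucleolar ribonucleoproteins of the box C/D and H/ACA classes guide the methylation and pseudouridylation of ribosomal RNA. Of 9 genes for their core and assembly proteins, a list put together after the values were seen, 8 were lower and the median was -1.03. Nop56, a scaffold of the box C/D particle, was at 59.9 and 129 CPM in PEP+/+ and at 33.1 and 47.4 CPM in PEP-/- samples (log2 fold change -1.17 ± 0.16, adjusted p 0.0119). Its partners Nop58 and Fbl, the methyltransferase, fell by 1.2 and 0.86 on the log2 scale. On the H/ACA side the pseudouridine synthase Dkc1 fell by 0.99, and its companions Gar1, Nhp2 and Nop10 fell by 1.07, 1.03 and 0.81. Nolc1, the chaperone that brings both classes together, fell by 1.30. The 9 genes are not independent, since their proteins work in shared particles. Among 37 tested genes named Nop, Nol, Noc, Utp or Rrp, chosen in the same way, 9 were lower, 0 were higher, and 35 had a negative log2 fold change, with a median of -0.47.

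The proteins of the ribosome itself formed 2 lists, also put together after the values were seen. Their calls were near the share over all genes (1.69%). None of 80 tested genes for cytosolic ribosomal proteins passed the test, with a median of 0.01 and 38 negative and 42 positive values. Their range, from -0.38 to 0.25, was narrow. Of 76 genes for mitochondrial ribosomal proteins 1 passed, Mrpl42 (-0.70), but 68 had a negative value and the median was -0.28. Ifrd2, a protein that binds idle ribosomes, was among the largest decreases, at 11.2 and 18.6 against 3.19 and 5.55 CPM (log2 fold change -1.73 ± 0.25, adjusted p 0.0119). Rplp0, the ribosomal reference gene of the study's quantitative PCR, was at 1460 and 1420 against 1610 and 1460 CPM, with a log2 fold change of 0.09 ± 0.16 and an adjusted p of 0.861.

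Of the pathway lists, DNA replication held the most calls. Of 36 tested genes of DNA replication and mitosis 15 were lower and 0 higher, and the median was -0.39. The 15 were genes of origin licensing, the replicative helicase, the replication fork, nucleotide supply and the entry into S phase. No mitosis gene of the list was called. The MCM2 to MCM7 proteins form the ring-shaped helicase that unwinds DNA at the fork. Mcm5 was at 138 and 85.1 CPM in PEP+/+ and at 67.7 and 41.1 CPM in PEP-/- samples (log2 fold change -1.04 ± 0.15, adjusted p 0.0119). Mcm2 fell from 117 and 76.6 to 54.6 and 33.2 CPM (-1.15 ± 0.19, adjusted p 0.0151), and Mcm6 from 193 and 98.0 to 112 and 59.2 CPM (-0.76 ± 0.13, adjusted p 0.0151). Each gene was higher in set 1 than in set 2 in both genotypes, and fell in both sets. Mcm3 and Mcm7 also passed, at -0.67 and -0.79. The licensing factors Cdc6 and Cdt1 (-1.18 and -1.08), the S-phase cyclins Ccne1 and Ccne2 (-1.13 and -1.25) and the sliding clamp Pcna (-0.71) moved with them. Mki67, a marker of cycling cells, was at 311 and 345 against 303 and 336 CPM, with a log2 fold change of -0.04 ± 0.17 and an adjusted p of 0.956. Top2a, a topoisomerase that peaks in G2 and mitosis, was at 327 and 217 against 259 and 186 CPM (-0.28 ± 0.16, adjusted p 0.469). Fewer cells in S phase and less of these RNAs per cell cannot be told apart in bulk samples.

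Ung, Cdca7 and Hells were among the lower genes as well. Ung, the uracil-DNA glycosylase, was at 11.2 and 9.28 CPM in PEP+/+ and at 4.01 and 2.16 CPM in PEP-/- samples (log2 fold change -1.81 ± 0.32, adjusted p 0.0164). Cdca7, the zinc finger partner of the chromatin remodeller Hells, was at 21.7 and 22.8 against 7.47 and 5.76 CPM (-1.78 ± 0.33, adjusted p 0.0198). Neither gene overlapped between the genotypes. Hells itself was at 39.7 and 15.6 against 16.1 and 4.73 CPM (-1.49 ± 0.21, adjusted p 0.0119), and here the groups overlapped because the sets differed.

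The promoters of genes named above, and of Slc16a1, a lower gene given below, are shown. They were chosen because they hold letters that E2F factors, the activators of S-phase genes, or MYC are known to bind. A minority of the lower genes held such letters. The sequences are those of RefSeq (GRCm38.p6) from 250 bases before to 50 bases after the annotated start, read 5′ to 3′ in the direction of transcription. Capitals mark TTTCCCGC or TTTGGCGC on either strand, called an E2F site here, in Mcm5 at chr8:75109259-75109558 (+ strand), Mcm6 at chr1:128359656-128359955 (- strand), Mycn at chr12:12941787-12942086 (- strand) and Cdca7 at chr2:72475969-72476268 (+ strand). In Slc16a1, at chr3:104638414-104638713 (+ strand), capitals mark the E-box CACGTG, the letters that MYC with Max is known to bind.
Mcm5: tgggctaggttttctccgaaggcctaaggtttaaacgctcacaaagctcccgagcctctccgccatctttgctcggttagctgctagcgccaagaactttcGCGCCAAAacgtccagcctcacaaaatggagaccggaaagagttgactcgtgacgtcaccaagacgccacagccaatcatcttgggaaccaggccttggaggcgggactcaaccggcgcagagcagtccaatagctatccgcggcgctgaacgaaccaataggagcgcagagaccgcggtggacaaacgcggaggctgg
Mcm6: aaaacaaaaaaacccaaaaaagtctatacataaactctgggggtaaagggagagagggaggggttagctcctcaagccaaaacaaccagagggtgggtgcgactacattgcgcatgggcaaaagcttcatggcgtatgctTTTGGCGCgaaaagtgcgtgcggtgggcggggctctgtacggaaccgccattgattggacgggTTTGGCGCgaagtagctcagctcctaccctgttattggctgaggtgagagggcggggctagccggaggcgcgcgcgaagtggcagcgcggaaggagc
Mycn: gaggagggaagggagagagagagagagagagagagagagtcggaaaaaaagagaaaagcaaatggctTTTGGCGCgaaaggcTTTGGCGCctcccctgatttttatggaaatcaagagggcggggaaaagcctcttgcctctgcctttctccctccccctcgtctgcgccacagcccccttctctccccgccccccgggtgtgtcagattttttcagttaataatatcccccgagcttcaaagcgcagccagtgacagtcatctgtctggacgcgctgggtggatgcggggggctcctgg
Cdca7: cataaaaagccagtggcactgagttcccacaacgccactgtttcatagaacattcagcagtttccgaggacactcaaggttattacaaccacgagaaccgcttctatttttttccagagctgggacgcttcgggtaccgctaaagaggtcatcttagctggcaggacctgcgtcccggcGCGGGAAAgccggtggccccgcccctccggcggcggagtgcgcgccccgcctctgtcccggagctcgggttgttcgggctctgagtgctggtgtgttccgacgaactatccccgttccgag
Slc16a1: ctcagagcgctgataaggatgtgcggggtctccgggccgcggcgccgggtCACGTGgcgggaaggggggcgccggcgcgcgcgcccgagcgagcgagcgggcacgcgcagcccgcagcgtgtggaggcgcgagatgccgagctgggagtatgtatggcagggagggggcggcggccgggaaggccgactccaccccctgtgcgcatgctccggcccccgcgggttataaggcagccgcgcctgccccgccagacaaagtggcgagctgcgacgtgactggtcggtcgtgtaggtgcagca
Of the 185 lower genes 156 had a promoter in the table, and 23 of these (14.7%) held an E2F site, against 3.13% of the 9594 promoters of genes tested and 1.63% of all 27025 promoters. Of the 5 genes of MCM2 to MCM7 with a promoter in the table, 4 held the site. The E-box was in 26 of the 156 promoters (16.7%), against 10.3% of genes tested and 7.24% of all promoters. Among the 31 promoters of higher genes, 0 held an E2F site and 2 held an E-box. A match describes letters only, and the E-box reads the same on both strands and was counted once.

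Several enzymes of nucleotide synthesis were lower. Of 27 tested genes of purine and pyrimidine synthesis, a list put together after the values were seen, 12 were lower, 0 were higher and 26 had a negative value, with a median of -0.72. Ctps, which makes CTP from UTP, was at 20.6 and 18.2 CPM in PEP+/+ and at 8.38 and 4.99 CPM in PEP-/- samples (log2 fold change -1.59 ± 0.28, adjusted p 0.0159). Dctd, which deaminates dCMP on the way to thymidylate, was at 3.53 and 8.67 against 1.18 and 1.44 CPM (-2.16 ± 0.51, adjusted p 0.0484). In the purine branch Ppat, which catalyses the committed step, Gart and Atic fell by 1.17, 1.07 and 1.00 on the log2 scale, and in the pyrimidine branch Umps fell by 0.81. Of the enzymes that make deoxynucleotides, Rrm2, the regulated subunit of ribonucleotide reductase, was at 135 and 67.0 against 76.8 and 36.6 CPM (-0.84 ± 0.14, adjusted p 0.0151). Its partner Rrm1 fell by 0.68, and the thymidylate synthase Tyms fell by 0.83.

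One-carbon and amino acid metabolism feeds nucleotide synthesis. Of 37 tested genes of amino acid synthesis and the integrated stress response 8 were lower, 0 were higher and 29 had a negative value, with a median of -0.41. The folate enzyme Mthfd1 was at 32.0 and 33.7 CPM in PEP+/+ and at 15.2 and 13.8 CPM in PEP-/- samples (log2 fold change -1.18 ± 0.19, adjusted p 0.0151). Its mitochondrial relative Mthfd2 was at 46.4 and 41.9 against 23.4 and 21.4 CPM (-0.97 ± 0.19, adjusted p 0.0272). Neither gene overlapped between the genotypes, and both differed little between the sets. The serine enzymes Phgdh, Psat1 and Shmt2 fell by 1.32, 0.75 and 0.68, the asparagine synthetase Asns by 1.09 and the methionyl-tRNA synthetase Mars by 0.73. Cth, which makes cysteine from cystathionine, had the largest called decrease after Ptpn22 (-2.53 ± 0.58, adjusted p 0.0440) but rested on 7 and 25 against 2 and 5 counts. Atf4, the transcription factor that activates this programme, was at 179 and 240 against 145 and 168 CPM, which did not pass (-0.41 ± 0.17, adjusted p 0.288). Its groups did not overlap. The stress-responsive mTOR inhibitor Ddit4 was at 129 and 116 against 148 and 176 CPM (0.41 ± 0.14, adjusted p 0.187).

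In polyamine synthesis 3 genes were lower. Odc1, ornithine decarboxylase and the first enzyme of the pathway, was at 75.1 and 78.3 CPM in PEP+/+ and at 38.1 and 35.7 CPM in PEP-/- samples. Its log2 fold change was -1.06 ± 0.16 with an adjusted p of 0.0119. Srm, spermidine synthase, fell by 1.34 and Mtap, which salvages the by-product of that step, fell by 0.89. These were 3 of 10 tested genes of a polyamine list put together after the values were seen, with a median of -0.34.

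Other lower genes concerned transport and folding. Slc16a1, a lactate and pyruvate transporter, was at 20.5 and 14.7 CPM in PEP+/+ and at 7.74 and 4.06 CPM in PEP-/- samples (log2 fold change -1.63 ± 0.23, adjusted p 0.0119). Car12, a membrane carbonic anhydrase, was at 6.68 and 21.4 against 2.46 and 4.99 CPM (-1.82 ± 0.35, adjusted p 0.0238). It was the only gene called of 32 tested for glycolysis and hypoxia (3.12%, against 1.69% of all genes). Its groups did not overlap, although set 2 was higher than set 1 in both genotypes. Ranbp1, a partner of the nuclear transport GTPase Ran, was at 69.3 and 79.5 against 34.3 and 31.6 CPM (-1.18 ± 0.16, adjusted p 0.0119). Tfrc, the transferrin receptor for iron uptake, fell by 1.35, and the survival factor Bcl2 fell by 0.86. Of the 8 subunits of the CCT chaperonin, 2 passed, Cct3 and Cct6a, at -0.65 and -0.59, with a median of -0.42 over the 8. ENSMUSG00000094126, for which the annotation used here gave no symbol, was at 21.5 and 40.6 against 7.56 and 8.85 CPM (-1.93 ± 0.39, adjusted p 0.0277).

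**Figure D4:**
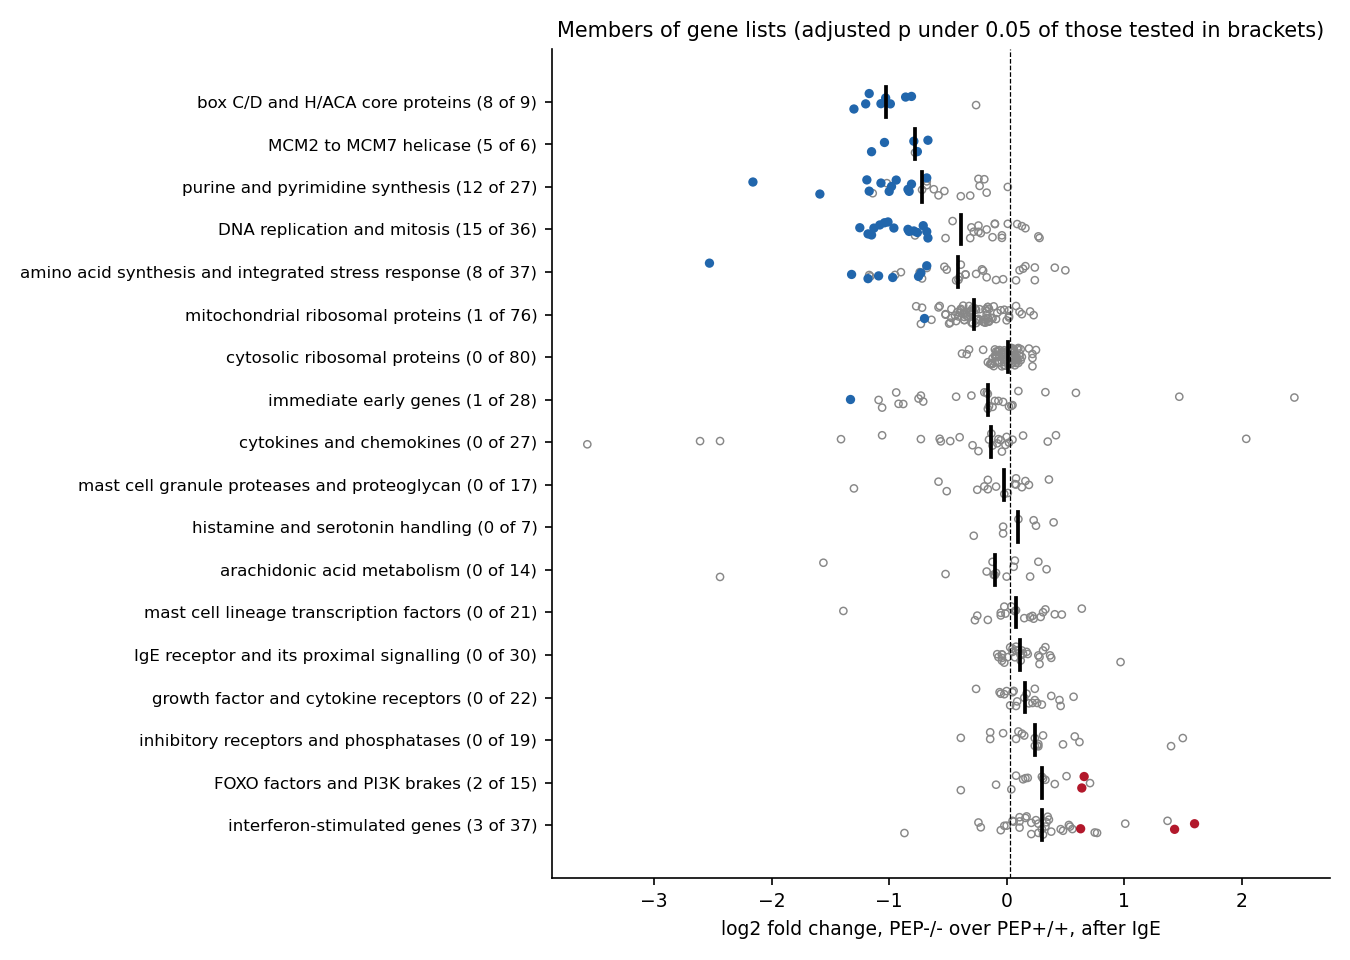
Log2 fold change of PEP-/- over PEP+/+ after IgE alone (horizontal axis) for the tested members of 18 gene lists (rows, Ptpn22 left out), with the number called and the number tested in brackets. Filled points passed an adjusted p of 0.05 (blue lower, red higher), open points did not, black bars are medians and the dashed line is the median of all genes tested. The rows of the box C/D and H/ACA, MCM2 to MCM7 and nucleotide synthesis lists lie left of the line, and those of the mast cell lists lie around it.

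The 40 genes that were higher in PEP-/- cells belonged to no such large group. The scavenger receptor Stab2, which takes up hyaluronan, was at 5.58 and 7.63 CPM in PEP+/+ and at 26.2 and 22.4 CPM in PEP-/- samples (log2 fold change 1.88 ± 0.34, adjusted p 0.0186). Cadm1, an adhesion molecule by which mast cells attach to nerves and fibroblasts, was at 9.04 and 6.16 against 17.3 and 13.1 CPM (1.00 ± 0.18, adjusted p 0.0159). These were the 2 genes called of 24 tested for integrins and adhesion, of which 19 had a positive value. Ccr2, a chemokine receptor of mast cell progenitors and of monocytes, was at 35.8 and 10.2 against 68.4 and 23.9 CPM (1.09 ± 0.22, adjusted p 0.0251). Its groups overlapped because set 1 was higher than set 2 in both genotypes. Of the other markers of monocytes, Cd68 was at 8.74 and 22 against 20.6 and 22.8 CPM (0.58 ± 0.39, adjusted p 0.545). Lyz2 was at 4.92 and 4.68 against 6.19 and 7.87 CPM (0.55 ± 0.43, adjusted p 0.616). Both were higher in the PEP-/- sample of each set, and neither passed. The part of monocytes in the level of Ccr2 was not tested.

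Further increases were found in signalling and transport genes. Peli2, a ubiquitin ligase of Toll-like receptor and interleukin 1 receptor signalling, was at 1.76 and 0.434 against 4.92 and 2.31 CPM (1.69 ± 0.38, adjusted p 0.0407). It was the only gene called of 30 tested in that pathway (3.33%, against 1.69% of all genes). Atp1b2, a subunit of the sodium pump, was at 12 and 12.1 against 27.3 and 29.2 CPM, and Fam234a was at 13.4 and 14.2 against 27.3 and 29.7 CPM. Both about doubled, with log2 fold changes of 1.22 ± 0.22 (adjusted p 0.0159) and 1.04 ± 0.17 (adjusted p 0.0151), and varied little within a genotype. Smpx rose by 1.13, Dhrs3, a reductase of retinal, by 0.77 and Tcp11l2 by 0.82 on the log2 scale. The transcription factor Maf rose by 1.00. Erv3, an endogenous retroviral gene, rose by 1.18, and the pseudogene Gm3608 by 1.76. Reads that align to more than 1 place were left unassigned by the counting, so the values of repeated or copied sequences such as these are uncertain. Gm15999 had the largest increase among called genes (2.54 ± 0.54, adjusted p 0.0319) from 6 and 2 to 27 and 26 counts.

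Foxo4 and Pik3ip1 rose as well. Pik3ip1 encodes an inhibitor of phosphoinositide 3-kinase, and Foxo4 a transcription factor that this kinase pathway keeps out of the nucleus. Pik3ip1 was at 98.4 and 87.9 CPM in PEP+/+ and at 145 and 152 CPM in PEP-/- samples (log2 fold change 0.66 ± 0.16, adjusted p 0.0463), and Foxo4 was at 23.7 and 20.6 against 36.2 and 33.2 CPM (0.64 ± 0.15, adjusted p 0.0484). They were the 2 called of 15 tested genes of FOXO factors and brakes on that kinase. The list, put together after the values were seen, had 13 positive values and a median of 0.30.

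Of 37 tested interferon-stimulated genes 3 were higher (8.11%) and 0 were lower. Over all genes 0.301% were called higher and 1.69% in either direction. Of the 37, 32 had a positive value, with a median of 0.30. Over all genes 7262 of 13305 had a positive value. Irf7, the transcription factor that amplifies the interferon response, was at 1.25 and 1.56 CPM in PEP+/+ and at 3.37 and 5.19 CPM in PEP-/- samples (log2 fold change 1.60 ± 0.35, adjusted p 0.0388). Ifi27l2a was at 8.74 and 11 against 21.6 and 32.1 CPM (1.43 ± 0.28, adjusted p 0.0238), and Gbp2, an interferon-induced GTPase, was at 18.1 and 12.8 against 27.7 and 20.1 CPM (0.63 ± 0.14, adjusted p 0.0416). All 3 separated the genotypes without overlap. The more abundant members did not pass, with Ifitm1 at 3010 and 3890 against 3700 and 4250 CPM (0.21 ± 0.16, adjusted p 0.607) and Ly6e at 812 and 883 against 1080 and 1020 CPM (0.30 ± 0.17, adjusted p 0.454). Samhd1, a deoxynucleotide hydrolase that restricts viruses and that was not in the list, rose by 0.56. The promoter of Gbp2, at chr3:142620413-142620712 (+ strand), is shown because it was the only one among the promoters of higher genes to hold the core of the interferon-stimulated response element, GAAANNGAAA on either strand, in capitals.
Gbp2: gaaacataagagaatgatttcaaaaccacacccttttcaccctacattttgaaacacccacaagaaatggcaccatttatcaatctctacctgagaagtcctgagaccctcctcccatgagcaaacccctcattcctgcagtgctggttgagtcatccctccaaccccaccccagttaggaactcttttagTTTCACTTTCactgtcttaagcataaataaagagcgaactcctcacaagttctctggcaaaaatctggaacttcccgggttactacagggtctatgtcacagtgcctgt
This core was thus in 1 of the 31 promoters of higher genes (3.23%), near the 3.1% of the promoters of genes tested. It was in 16 of the 30 promoters of interferon-stimulated genes in the table (53.3%) and in 0 of the 156 promoters of lower genes.

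The genes that define the mast cell did not pass the test. Of 30 tested genes of the IgE receptor and its proximal signalling 0 passed, with 23 positive values and a median of 0.11. In a list of this size 0 calls is near the share called over all genes (1.69%). Fcer1a, the subunit that binds IgE, was at 6800 and 6510 CPM in PEP+/+ and at 7150 and 6680 CPM in PEP-/- samples (log2 fold change 0.05 ± 0.18, adjusted p 0.939). Ms4a2, the signal-amplifying subunit, was at 861 and 449 against 968 and 509 CPM (0.17 ± 0.23, adjusted p 0.798). For both genes the groups overlapped. Ptpn12, a phosphatase of the same PEST family, was at 119 and 76.1 against 126 and 92.9 CPM (0.18 ± 0.13, adjusted p 0.591), and in the list of that family and its partners Ptpn22 was the only member called of 9. Of 19 inhibitory receptors and phosphatases 0 passed, but 15 had a positive value and the median was 0.24. Inpp5d, the lipid phosphatase SHIP1, was at 883 and 702 against 1020 and 940 CPM, which did not overlap (0.31 ± 0.17, adjusted p 0.422).

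Mediator genes and growth factor receptors also gave 0 calls, again near the overall share of 1.69% in lists of this size. Of 17 granule protease and proteoglycan genes, 7 genes of histamine and serotonin handling and 14 genes of arachidonic acid metabolism 0 passed, with medians of -0.02, 0.10 and -0.10. Cpa3, carboxypeptidase A of the granules, was the most abundant of them, at 34800 and 31700 CPM in PEP+/+ and at 43000 and 32000 CPM in PEP-/- samples (log2 fold change 0.16 ± 0.17, adjusted p 0.739). Tph1, the rate-limiting enzyme of serotonin synthesis, was at 3710 and 3130 against 2980 and 2650 CPM, which did not overlap (-0.28 ± 0.17, adjusted p 0.507). Slc18a2, which loads amines into granules, was at 1020 and 2070 against 1290 and 2240 CPM (0.23 ± 0.15, adjusted p 0.523). Of 22 growth factor and cytokine receptors 0 passed, with a median of 0.16, and Il1rl1, the interleukin 33 receptor, was at 5750 and 3730 against 6140 and 4560 CPM (0.19 ± 0.17, adjusted p 0.671). Of 21 lineage transcription factors 0 passed, with a median of 0.08. A further 29 genes of cholesterol synthesis and uptake and 14 of antigen presentation also gave 0 calls, with medians of 0.12 and 0.27. H2-Ab1, a class II chain of antigen presentation that the dendritic cell list also holds, was at 10.5 and 17.4 against 20.5 and 28.4 CPM (0.82 ± 0.22, adjusted p 0.0764), and with DESeq2 its adjusted p was 0.0185.

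No cytokine or chemokine gene passed the test before antigen. Of 27 tested 0 passed, which in a list of this size is near the overall share of 1.69%. Of the 27, 21 had a negative value, and the median was -0.13. Tnf was at 1.62 and 1.82 CPM in PEP+/+ and at 0.819 and 0.566 CPM in PEP-/- samples, from 22 and 21 against 9 and 11 counts. The groups did not overlap, but the log2 fold change of -1.41 ± 0.34 just missed the threshold (adjusted p 0.0560), and with DESeq2 it passed (adjusted p 0.0281). Il13, a cytokine of type 2 responses, was at 5.14 and 5.03 against 3.73 and 3.29 CPM (-0.57 ± 0.34, adjusted p 0.491), and Lif was at 46.6 and 79.7 against 36.1 and 48.9 CPM (-0.56 ± 0.22, adjusted p 0.244). The most abundant member, Tgfb1, was at 296 and 321 against 281 and 309 CPM (-0.07 ± 0.21, adjusted p 0.932). Of the other genes of the quantitative PCR, Csf2 and Ptgds had at most 1 count and Ptgs2 at most 8 counts in any of the 4 samples, so a difference in them was not detectable at this depth. Rare transcripts of other cell types leaned either way. Siglecf was at 1.03 and 0.173 against 2.09 and 1.29 CPM (1.5 ± 0.48, adjusted p 0.150). Pdgfrb was at 0.882 and 0.0867 against 2.00 and 1.23 CPM (1.78 ± 0.46, adjusted p 0.0683). In the other direction, Hbb-bt was at 3.31 and 4.6 against 1.73 and 2.37 CPM, and Ncr1 at 0.882 and 1.21 against 0.546 and 0.617 CPM. None of these genes passed.

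The surroundings of the deleted gene were examined because a targeted allele carries its neighbours with it. Of 19 tested genes that start within 1 Mb of Ptpn22, 2 were called (10.5%, against 1.69% of all genes), and both were lower. These were Slc16a1, 0.779 Mb away, and Capza1, an actin-capping subunit 0.963 Mb away that was at 127 and 65.7 CPM in PEP+/+ and at 86.5 and 38.5 CPM in PEP-/- samples (log2 fold change -0.66 ± 0.14, adjusted p 0.0303). Within 5 Mb 3 of 76 were called (3.95%), the additional gene being Wdr77, a partner of the arginine methyltransferase Prmt5 (-0.84 ± 0.16, adjusted p 0.0233). Within 10 Mb 4 of 171 were lower and 2 were higher (3.51% called), and Phgdh and Gm15999, given above, were among these. On the whole chromosome 3, without Ptpn22, 13 of 613 were called (2.12%). The genome of these mice around Ptpn22 was not examined.

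The genotype difference was then followed into the other treatments, which share no library with the samples after IgE alone but may share their cultures. Of the 225 genes, 223 kept their direction with DNP added, 224 with DEX added and 220 with both. Over all genes tested the direction was the same for 73.9, 70.4 and 67.7%. The genes were called in the same direction in 136, 27 and 2 cases, where the share of all genes called was 1.86% with DNP, 0.564% with DEX and 0.0225% with both. The median of the 185 lower genes was -0.89 with IgE alone, -0.84 with DNP, -0.54 with DEX and -0.46 with both. That of the 40 higher genes was 0.81, 0.73, 0.65 and 0.49. The genes were chosen on their values after IgE alone, so the order of these medians is a description.

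Whether the genotype difference itself changed with treatment was tested as an interaction. With edgeR 0 of 13305 genes passed for DNP and 0 for DEX, with 143 and 309 genes at an unadjusted p under 0.05. With DESeq2 0 passed for either, with 105 and 270 at an unadjusted p under 0.05. All these counts were below the share of 0.05 of genes that evenly spread p-values would give. The test was thus conservative here, and 0 calls does not show an equal genotype difference in all treatments. Myc and Mycn are given because their direction turned, and were chosen here after their values were seen. After IgE DNP, Myc was at 59.4 and 61.1 CPM in PEP+/+ and at 61.4 and 77.7 CPM in PEP-/- samples, and Mycn was at 61.2 and 41.7 against 79.9 and 57.6 CPM. Neither gene was lower in the PEP-/- samples, while Ctps and Ifrd2 still were, at -2.14 and -1.93 after IgE DNP. After IgE DEX without antigen Myc and Mycn were at -1.56 and -1.39. After IgE DNP DEX, the other group with antigen, Myc was at 60 and 68.5 against 42.9 and 64.6 CPM, with the PEP-/- sample below in both sets (log2 fold change -0.28), and Mycn had a log2 fold change of 0.13. The interaction of genotype with DNP was 1.52 for Myc and 2.04 for Mycn on the log2 scale, with an adjusted p of 1.0 for both by edgeR's quasi-likelihood test, so the difference between treatments did not pass. Without the filter on low counts both passed (adjusted p 0.00154 and 3.02e-05), and without PEP+/+ replicate 1 Mycn passed (adjusted p 0.00832).

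**Figure D5:**
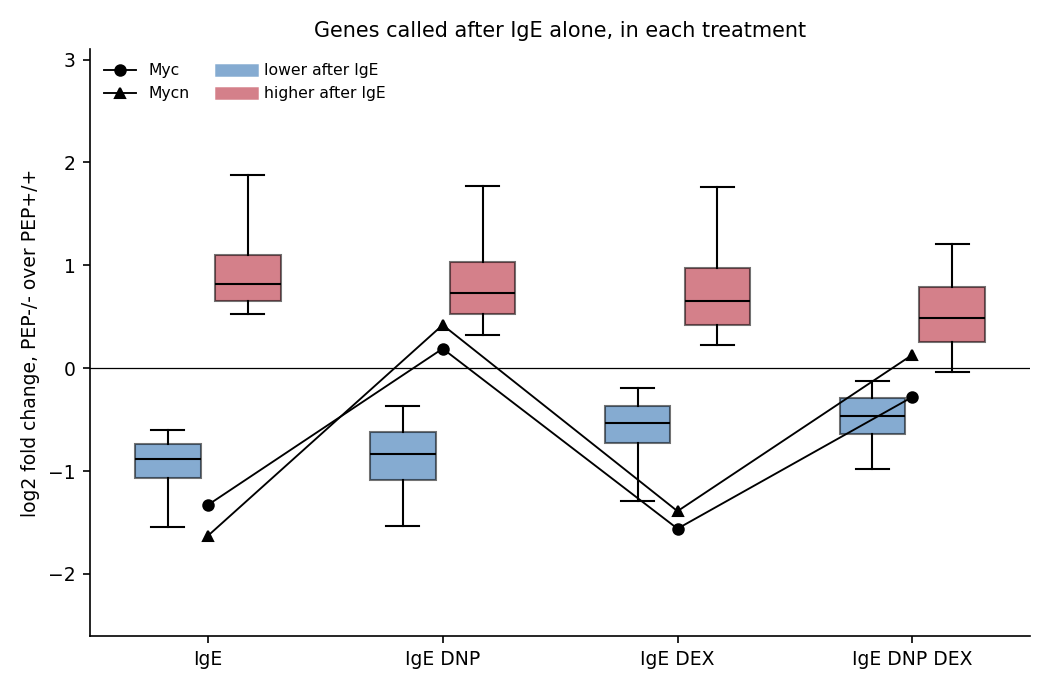
Log2 fold change of PEP-/- over PEP+/+ (vertical axis) in the 4 treatments (horizontal axis) for the genes called after IgE alone, Ptpn22 left out. Boxes give the quartiles and the median of the lower (blue) and the higher (red) genes, whiskers run from the 5th to the 95th percentile, and lines follow Myc (circles) and Mycn (triangles), which lie above 0 after IgE DNP while the blue box lies below it.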

How the data were processed

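RNA-seq of 16 samples (8 conditions with 2 samples each) was re-analysed. Raw counts per Ensembl gene were deposited, which the authors had made with TopHat2 (GRCm38) and HTSeq. The HTSeq strand setting was not given in the sources used here. The 5 rows of unassigned reads were left out of library sizes. Of 39179 gene IDs, 37693 (96.21%) were matched to GENCODE M21 for symbols and coordinates. Genes were filtered with filterByExpr (edgeR 4.0.16, R 4.3.3, minimum count 10), scaled by TMM and tested with edgeR's quasi-likelihood test (glmQLFit, glmQLFTest, two-sided), with 1 mean per condition and the replicate set as a block over all 16 samples. p-values were adjusted by Benjamini-Hochberg over 13305 genes and called under 0.05. The block follows the set in the titles. Same-set samples deviated together in 28 of 28 pairs of conditions (r = 0.454 to 0.835, and 0.805 between the genotypes after IgE). Replicates differed beyond sampling noise (chi-square per degree of freedom 69.6 and 61.9). CPM values use TMM-scaled library sizes, and differences within a set use log2(CPM + 0.1).

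Named genes were Ptpn22, then among called genes with the same sign in both sets and at least 20 counts in each sample of the higher genotype the 10 largest changes and the 5 smallest adjusted p in each direction, called genes within 5 Mb of Ptpn22, up to 4 called and the 3 most abundant members of each of 18 pathway and 10 marker lists, and the genes of the quantitative PCR. Not all of these are printed. The members and lists were chosen with earlier results of these data known. Other called genes, namely Mxd4, the box C/D and H/ACA genes, Mrpl42, Mcm3, Mcm7, Cdc6, Cdt1, Ccne1, Ccne2, Pcna, Hells, Ppat, Gart, Atic, Umps, Tyms, Phgdh, Psat1, Asns, Cth, Srm, Mtap, Tfrc, Bcl2, Cct3, Cct6a, Maf, Foxo4, Pik3ip1 and Samhd1, were chosen after their values were seen, as were 11 further lists, which are described by counts and medians only. The script was tested on simulated data. Alternatives were DESeq2 1.42.0, its size factors, other filters, fits without the block or on 4 samples, a fold change limit and leaving out each sample.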

Additional observations from a re-analysis of the deposited data

Results flagged for a closer look

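Mycn was lower in PEP-/- cells after IgE (log2 fold change -1.63) but not after IgE DNP (0.42), where both same-set differences were positive, so every same-set pair moved one way before antigen and the other way after it. Myc did the same, with -1.33 after IgE and 0.19 after IgE DNP. The interaction of genotype with DNP did not pass the threshold for either gene in the main edgeR fit (adjusted p 1.0 for both). It passed for both genes in edgeR without the filter on low counts. Pik3ip1 was higher in PEP-/- cells after IgE (0.66) and had -0.04 after IgE DNP DEX, with both same-set differences opposite to those after IgE. The difference between those treatments was not tested.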

How the results depend on the processing

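The count of 225 genes after IgE was 1 with no replicate block, 455 with DESeq2, 30 with DESeq2 and no replicate block, 408 with no filter on low counts, 2063 in a fit of only the 4 IgE samples with the replicate block, 0 in that fit with no replicate block (281 genes at an unadjusted p under 0.05), and 75 with a log2 fold change of at least 1. It was 217 with DESeq2 size factors and 237 with at least 10 counts in every sample. With 1 sample left out it ranged from 1 to 125, and the lone sample of a genotype was then assumed to vary like the other groups. Alternatives chosen after seeing the data gave a set effect for each treatment (186 genes) or for each genotype (204). The cause of these shifts was not tested. Every called gene with a value under an alternative kept its direction. These were 225 of 225 genes in most, 224 of 224 in the fits of 4 samples and 212 of 212 under the stricter filter. The genes were chosen on these same libraries with 1 sign in both sets, so this was nearly fixed in advance. The calls for DNP interactions rose from 0 to 2 with no filter (Myc and Mycn) and ranged from 0 to 1 with 1 sample left out. This was Mycn without PEP+/+ replicate 1 and Gm5526 without PEP-/- replicate 1. The DEX interactions rose from 0 to 1 with no filter (Atp8b4). These genes were named after their values were seen. None of 24 named genes without a call changed direction, and 14 of their values passed the threshold under an alternative. Without the replicate block the interactions stayed at 0 calls. Depth limits the precision of genes with few counts, such as Cth, Tnf and Gm15999.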
